A study of Mus musculus with 14 samples.

Results

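Acute phase proteins are plasma proteins that the liver makes in larger or smaller amounts during inflammation. The genes described here are 33 of them and of the signalling genes that control them, chosen by name: serum amyloids, pentraxins, orosomucoids, haem and metal carriers, fibrinogen chains, protease inhibitors, endotoxin sensors, and the receptors and nuclear factors of the cytokines interleukin-6 (IL-6) and interleukin-1 (IL-1). Of these, 32 had a value on the arrays, among 19505 named genes; Serpina3m was not analysed here. Liver RNA was measured on 14 Affymetrix arrays of male mice on a C57BL/6 background, homozygous for floxed alleles of the AMP-activated protein kinase (AMPK) genes Prkaa1 and Prkaa2. All mice had eaten a high-fat diet (60% of calories) for 4 weeks from the age of 6 weeks. At 10 weeks the control group (6 samples) received AAV8-TBG-empty vector and the knockout group (8 samples) AAV8-TBG-Cre, through the jugular vein. For the next 3 weeks all received the antidiabetic drug metformin, 50 mg/kg per day, and they were fasted for 16 h before the liver was taken. The labels give an age of 4 months, whereas the steps of the protocol add up to 13 weeks. TBG is a hepatocyte promoter, so Cre acts in hepatocytes, and other liver cells keep the floxed alleles intact. Every animal, controls included, had metformin and the diet, so the comparison is of livers that received Cre or no Cre, all under the drug. Nothing in the labels says that every sample is its own mouse; the p-values therefore describe how these samples scatter, and that scatter could be technical in part.

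In the classical acute phase response IL-6 binds its receptor (Il6ra) and the shared signalling chain gp130 (Il6st) on hepatocytes, which activates the transcription factor STAT3. STAT3 and the C/EBP factors then raise the genes of secreted proteins such as serum amyloid A and the fibrinogen chains, and STAT3 also induces its own inhibitor Socs3. IL-1, which signals through Il1r1 and is blocked by the antagonist Il1rn, adds to the induction of a subset of these genes, among them the serum amyloids and orosomucoids.

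The arrays formed 2 sets, each with 3 control and 4 knockout samples: controls 1 to 3 with knockouts 1 to 4, and controls 4 to 6 with knockouts 5 to 8. Over all rows of the table, arrays of 1 set correlated at 0.988 to 0.994 and arrays of different sets at 0.951 to 0.963. The labels do not name these sets, so the set entered the fit as a term, and levels are given by set. Unless said otherwise, a difference is the log2 level in knockouts less that in controls, ± SE, from limma with a term for the set (6 controls, 8 knockouts). "Fell" is used only where the p-value adjusted over all 19505 genes was under 0.05. Both targeted genes fell in the knockouts, with all 8 samples below the controls of their set: Prkaa2 by 1.13 ± 0.08 (adjusted p = 1.922e-06) and Prkaa1 by 0.67 ± 0.13 (adjusted p = 0.0303). The Prkaa2 call held in all 14 fits that leave out 1 array, whereas the Prkaa1 call was lost in 8 of them (without control 1, 2, 4, 5 or 6, or knockout 2, 4 or 5; adjusted p up to 0.0771) and without controls 1 and 4 together (adjusted p = 0.124). The mean log2 level of Prkaa2 went from 8.84 ± 0.11 (SD, n = 3 controls) to 7.73 ± 0.11 (SD, n = 4 knockouts) in set 1 and from 9.77 ± 0.12 to 8.63 ± 0.16 in set 2. Hepatocyte markers were high, such as Alb, the albumin gene, between 13.57 and 13.74 on every array. The descriptions of knockouts 7 and 8 repeat the numbers of knockouts 5 and 6, but no pair of arrays held identical values.

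Acute phase genes were mostly lower in the knockout livers, and few of the differences passed the test. Of the 32 measured genes 27 had a negative difference, where 49.4% of all 19505 genes did. The median was -0.14 against 0.00 over all genes. Several members varied together between samples of 1 group, so the counts here and below are not 32 independent observations. Apcs and Lrg1 fell and no member rose, which makes 2 of 32 called members, where 0.272% of all genes were called lower and 0.431% higher. A further 12 were lower at an unadjusted p under 0.05 only, so that 14 of 32 were below that limit on the lower side and 0 on the upper side, where all genes gave 4.83% and 5.53%. In 4 members, Apcs, Lrg1, Saa4 and Itih4, each of the 8 knockouts was lower than any control from the same set, which held for 0.538% of all genes. In set 1 alone 24 members were negative (48.3% of all genes) with a median of -0.14, and in set 2 alone 27 (49.9% of all genes) with a median of -0.13. Without a term for the array set limma called 0 of the 32 genes, with 3 at an unadjusted p under 0.05 (3.36% of all genes).

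Part of this depended on which controls were included. Control 1 belonged to set 1 and control 4 to set 2. Each had the highest level of the 7 arrays of its set for 21 of the 32 genes. The same share over all genes was not computed, so this is not shown to be particular to these genes. The means of control 1 and control 4 over the 32 genes were 0.32 and 0.33 above the mean of their set. The other 4 controls lay between -0.13 and 0.08 and the 8 knockouts between -0.21 and 0.04. Without these 2 controls the median difference was -0.09, 21 of 32 genes were negative (48.9% of all genes), 9 were lower at an unadjusted p under 0.05, 1 was higher (5.18% and 5.70% of all genes), and limma called 0 members where it called 0.133% of all genes. Both were high in most members, so leaving them out lowers the control mean in those members by construction. Without control 3 alone, the lowest control of set 1 over these genes, the median was -0.20 and limma called 5 members. Control 1 and control 4 also each had the lowest mean of their set for markers of Kupffer cells, liver endothelium and lymphocytes. The other marker lists were mixed. The mean over 11 markers of Kupffer cells, the resident macrophages of the liver, was 7.91 in control 1 against 8.88 and 8.77 in controls 2 and 3. It was 8.14 in control 4 against 8.60 and 8.58 in controls 5 and 6. Over 11 markers of liver endothelium the means were 6.74 in control 1 and 7.46 in control 4, the lowest of their sets, where the other arrays lay between 7.14 and 7.93 in set 1 and between 7.83 and 8.27 in set 2. Hepatocyte markers (10 genes, 3 of them also negative acute phase proteins) had means between -0.053 and 0.051 from the set mean on the 14 arrays. Relative to the set mean, control 1 was at -0.35 for stellate cell, -0.32 for monocyte, -0.26 for lymphocyte, -0.24 for cholangiocyte and 0.21 for neutrophil markers. Control 4 was at -0.09, 0.11, -0.20, 0.03 and 0.06 for the same lists. Leaving out these controls also moved the markers between the groups: endothelium from 6 to 11 of 11 negative (median -0.01 to -0.28), stellate cells from 5 to 10 of 11 (median 0.01 to -0.14) and Kupffer cells from 1 to 8 of 11 (median 0.12 to -0.14). Every difference given here without controls 1 and 4 comes from that fit. In whole tissue, fewer cells of a type and less RNA per cell cannot be told apart, and the part of these marker shifts in the acute phase values was not tested.

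**Figure D1:**
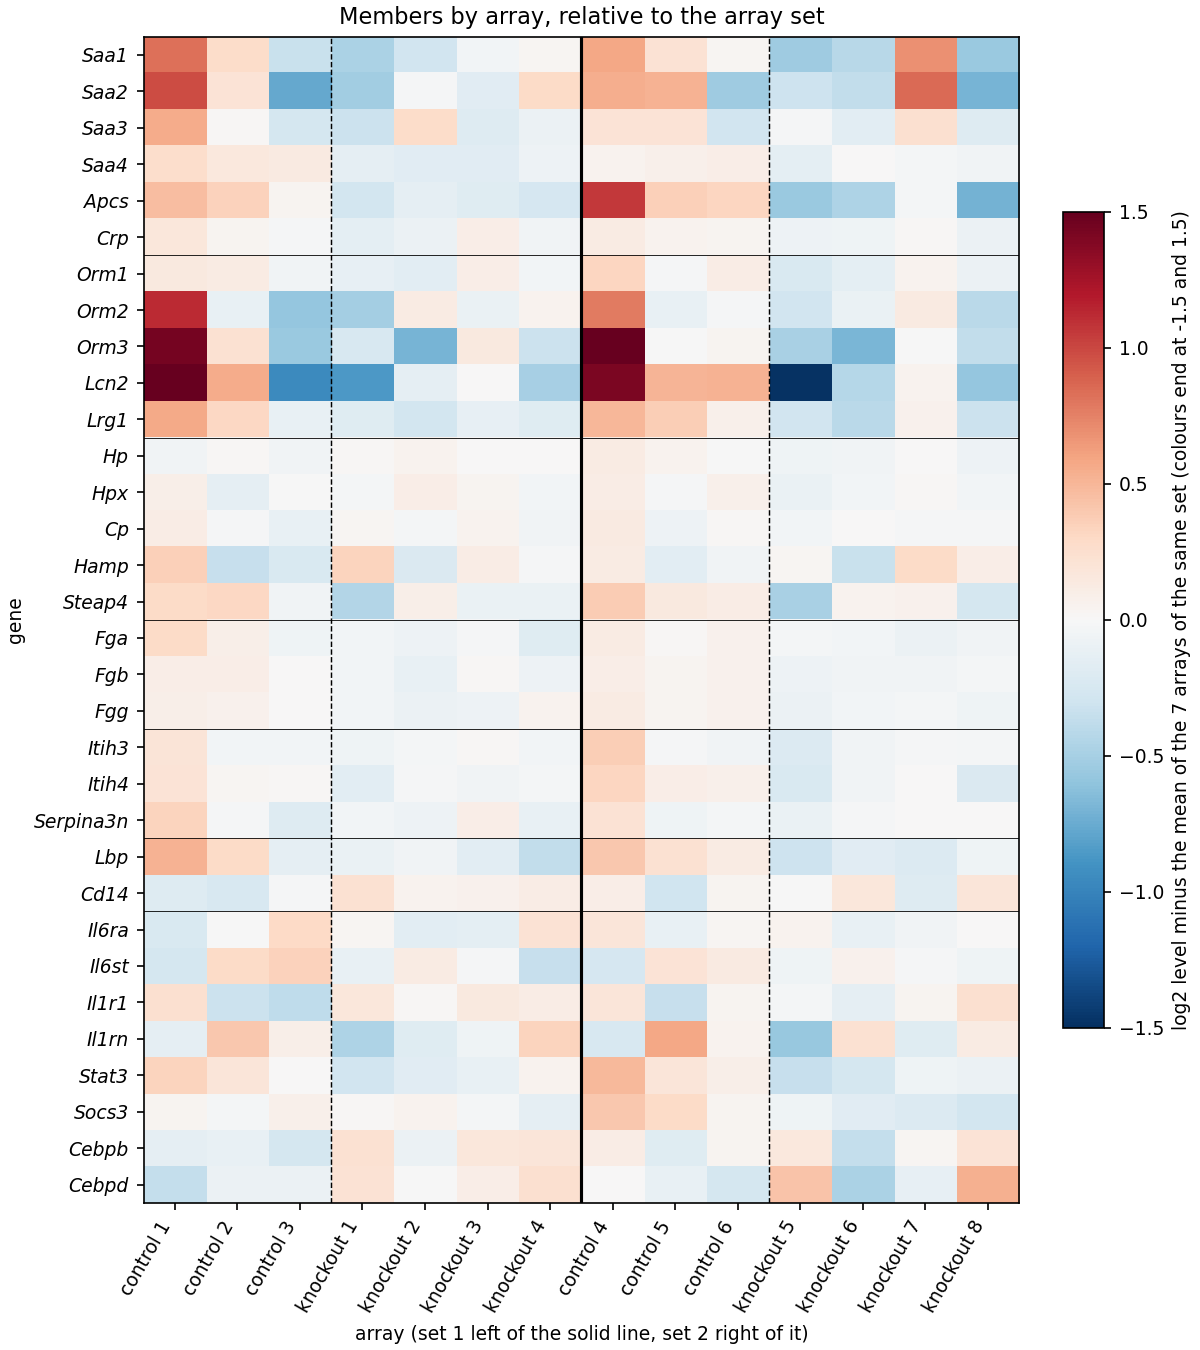
Level of each of the 32 genes (rows, in groups of related function) on each of the 14 arrays (columns), as log2 level minus the mean of the 7 arrays of the same set; red is above and blue below that mean. Control 1 and control 4 have the highest level of their set for 21 genes each, and the colours are strong in Lcn2 and Orm3 and faint in Hp, Hpx and Cp.

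Apcs, which encodes serum amyloid P component, the main acute phase pentraxin of the mouse, fell most clearly. In set 1 its log2 level was 11.22, 11.10 and 10.80 in the controls and 10.48, 10.62, 10.57 and 10.50 in the knockouts. The controls of set 2 were at 10.40, 9.70 and 9.66 and the knockouts at 8.78, 8.88, 9.31 and 8.63. The groups did not overlap in either set. The difference was -0.76 ± 0.14 (adjusted p = 0.0254), so controls were at 1.69 times the knockout level, with -0.50 in set 1 and -1.02 in set 2. Of 14 fits that each leave out 1 array, those lacking control 1 or control 2 lost the call (highest adjusted p = 0.0568). Without controls 1 and 4 together the difference was -0.59 (adjusted p = 0.0686). The related pentraxin gene Crp, for C-reactive protein, which reacts little in mice, was at -0.12 ± 0.06 (adjusted p = 0.566), with 7 of 8 knockout samples below the controls of their set.

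Lrg1, which encodes a secreted leucine-rich glycoprotein induced by IL-6, also fell. Its level was 11.79, 11.53 and 11.10 in the controls of set 1 and 11.03, 10.94, 11.09 and 11.04 in the knockouts. For set 2 the values were 11.59, 11.46 and 11.16 in the controls and 10.80, 10.68, 11.15 and 10.77 in the knockouts. The groups were separate in both sets, but only just: knockout 3 lay next to control 3, and knockout 7 next to control 6. The difference was -0.50 ± 0.11 (adjusted p = 0.0450), which makes controls 1.42 times the knockout level. This call held only without control 3, control 6 or knockout 7; leaving out any of the 11 other arrays lost it, with adjusted p up to 0.116, and without controls 1 and 4 the difference was -0.38 (adjusted p = 0.208).

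**Figure D2:**
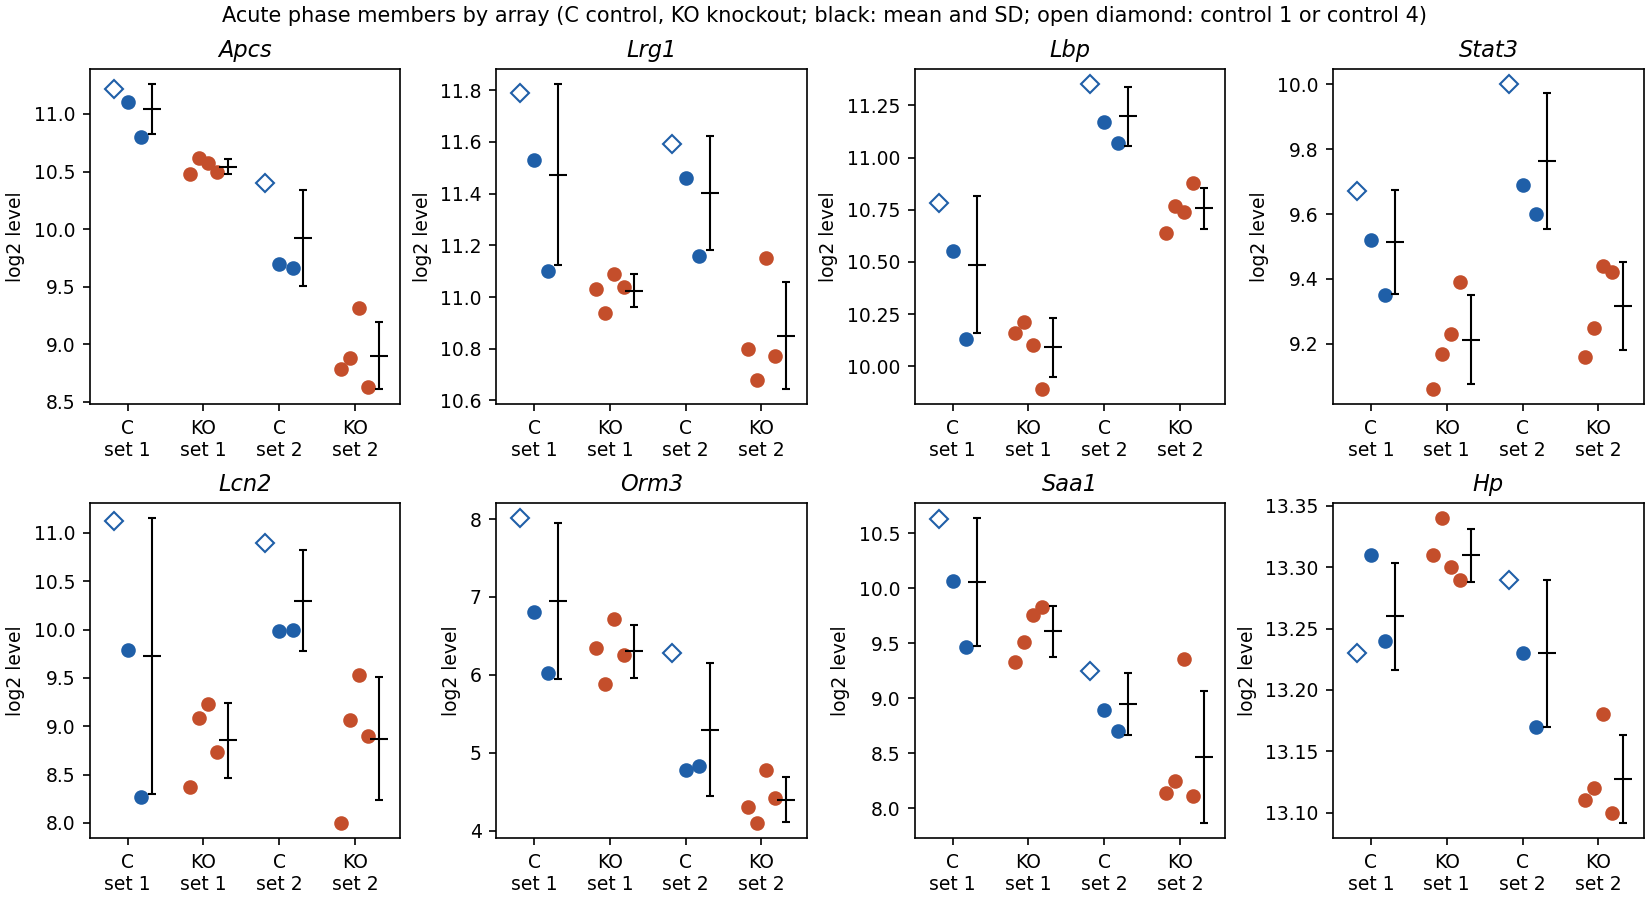
Log2 level of 8 genes on each array, by group and array set (C control, blue; KO knockout, red), with the mean and SD of each group in black; open diamonds mark control 1 and control 4, and each panel has its own scale. Knockout samples of Apcs and Lrg1 lie below all controls of their set, those of Lcn2, Orm3 and Saa1 overlap the controls in at least 1 set, and Hp spans 13.10 to 13.34.

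Saa4 and Itih4 were lower in every knockout sample than in any control of the same set, without passing the adjusted threshold. Saa4 encodes a serum amyloid A that is expressed constitutively. It was 12.01, 11.91 and 11.88 in the controls of set 1 and 11.61, 11.58, 11.58 and 11.67 in the knockouts; in set 2 it was 12.83, 12.85 and 12.88 in the controls and 12.63, 12.79, 12.75 and 12.72 in the knockouts. The spread within groups was small, and the difference of -0.23 ± 0.06 (adjusted p = 0.140) was nearly the same without controls 1 and 4, at -0.21. Itih4, an inter-alpha-trypsin inhibitor heavy chain, was at -0.22 ± 0.07 (adjusted p = 0.239). Its controls were at 13.11, 12.94 and 12.93 in set 1 and its knockouts at 12.75, 12.89, 12.86 and 12.88. In set 2 the controls were at 12.50, 12.28 and 12.26 and the knockouts at 11.95, 12.13, 12.19 and 11.97.

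The promoter windows of these 4 genes are shown because their groups did not overlap in either set. Each runs from 250 bases before to 50 bases after the annotated start (RefSeq, GRCm38.p6), written 5′ to 3′ on the strand of the gene. Capitals mark matches to the STAT pattern TTCNNNGAA or the C/EBP pattern TTGCNNAA, searched on both strands. The windows are chr1:172895005-172895304 (minus strand) for Apcs, chr17:56121897-56122196 (minus strand) for Lrg1, chr7:46732554-46732853 (minus strand) for Saa4 and chr14:30886226-30886525 (plus strand) for Itih4.
Apcs: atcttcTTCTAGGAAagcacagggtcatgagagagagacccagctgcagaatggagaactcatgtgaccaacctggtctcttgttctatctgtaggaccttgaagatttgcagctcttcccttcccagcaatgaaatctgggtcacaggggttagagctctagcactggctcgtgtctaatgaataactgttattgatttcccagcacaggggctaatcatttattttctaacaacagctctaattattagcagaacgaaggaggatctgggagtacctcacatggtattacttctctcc
Lrg1: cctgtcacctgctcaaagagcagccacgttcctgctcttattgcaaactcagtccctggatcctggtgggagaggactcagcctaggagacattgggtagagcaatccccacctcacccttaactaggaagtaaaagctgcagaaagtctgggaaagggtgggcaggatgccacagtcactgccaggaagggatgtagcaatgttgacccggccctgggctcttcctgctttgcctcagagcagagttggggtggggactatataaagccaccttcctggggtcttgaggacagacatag
Saa4: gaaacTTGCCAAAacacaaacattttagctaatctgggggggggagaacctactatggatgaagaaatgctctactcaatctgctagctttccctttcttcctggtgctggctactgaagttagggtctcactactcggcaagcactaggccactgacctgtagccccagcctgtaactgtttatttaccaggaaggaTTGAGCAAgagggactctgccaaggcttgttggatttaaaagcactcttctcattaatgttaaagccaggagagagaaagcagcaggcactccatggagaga
Itih4: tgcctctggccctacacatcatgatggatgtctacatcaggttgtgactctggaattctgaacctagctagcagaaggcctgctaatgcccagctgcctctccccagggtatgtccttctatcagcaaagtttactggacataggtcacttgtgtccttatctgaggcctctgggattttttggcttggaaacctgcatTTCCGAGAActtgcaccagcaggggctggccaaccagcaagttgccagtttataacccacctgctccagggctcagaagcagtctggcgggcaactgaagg
Apcs held the STAT pattern as TTCTAGGAA at -244 to -236 from the start and Itih4 as TTCCGAGAA at -51 to -43. Saa4 held the C/EBP pattern at -245 to -238 and at -52 to -45, and no match was found in the Lrg1 window. RefSeq windows were matched for 27 of the 32 genes (31 windows). Of these, 22.6% held the STAT pattern and 41.9% the C/EBP pattern, against 8.30% and 10.8% of all 32851 windows of this length. Many of the members are known to be induced through these factors, and a match is a description of the letters in the window, not a binding site.

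Lcn2, which encodes lipocalin 2, a protein that sequesters bacterial siderophores, had the largest difference of all members. It was 11.12, 9.79 and 8.27 in the controls of set 1 and 8.37, 9.09, 9.23 and 8.73 in the knockouts. In set 2 it was 10.90, 9.99 and 10.00 in the controls and 8.00, 9.06, 9.53 and 8.90 in the knockouts. The groups were separate in set 2 but not in set 1, where control 3 was the lowest of all 7 arrays. The difference was -1.15 ± 0.35 (adjusted p = 0.191), or -0.65 without controls 1 and 4, and without control 3 alone it passed the threshold (adjusted p = 0.0222).

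The orosomucoids, small acidic plasma glycoproteins encoded by a cluster of similar genes, were each highest in control 1 within set 1 and in control 4 within set 2. Orm3 was 8.01, 6.81 and 6.02 in the controls of set 1 and 6.34, 5.88, 6.72 and 6.26 in the knockouts. The controls of set 2 were at 6.28, 4.78 and 4.83 and the knockouts at 4.30, 4.10, 4.78 and 4.42. All of these but control 4 were dim, under 5, where array medians lay between 5.73 and 5.87. Whether the row can show a change at that level was not tested. Control 1 and control 4 stood more than 1 above the next array of their set, and the rest overlapped or nearly touched. The difference was -0.78 ± 0.28 (adjusted p = 0.293) with all arrays and -0.26 without these controls. Orm2 was at -0.32 ± 0.22 (adjusted p = 0.681) and changed sign without them, to 0.07. Orm1 was at -0.19 ± 0.08 (adjusted p = 0.403). As these genes are near copies of each other, the array rows may share signal between them.

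Serum amyloid A genes gave a mixed picture. Saa1, a major acute phase apolipoprotein gene, was 10.63, 10.07 and 9.47 in the controls of set 1 and 9.33, 9.51, 9.76 and 9.83 in the knockouts. For set 2 the values were 9.25, 8.89 and 8.70 in the controls and 8.14, 8.25, 9.36 and 8.11 in the knockouts. Knockout 7 was thus the highest of its set, above all 3 controls, while the other 3 knockouts were below them. The difference was -0.47 ± 0.20 (adjusted p = 0.423), and -0.25 without controls 1 and 4. Saa2, a close copy of Saa1, was at -0.28 ± 0.27 (adjusted p = 0.806) and Saa3, expressed in macrophages and other cells as well as hepatocytes, at -0.13 ± 0.13 (adjusted p = 0.810). Without controls 1 and 4 both had a difference of 0.02.

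The promoter windows of Saa1, Saa2, Orm3 and Lcn2 are shown because these genes varied widely between samples of 1 group, and because the first 2 are near copies. They are chr7:46742931-46743230 (minus strand), chr7:46751583-46751882 (plus strand), chr4:63355908-63356207 (plus strand) and chr2:32387690-32387989 (minus strand), with capitals as above.
Saa1: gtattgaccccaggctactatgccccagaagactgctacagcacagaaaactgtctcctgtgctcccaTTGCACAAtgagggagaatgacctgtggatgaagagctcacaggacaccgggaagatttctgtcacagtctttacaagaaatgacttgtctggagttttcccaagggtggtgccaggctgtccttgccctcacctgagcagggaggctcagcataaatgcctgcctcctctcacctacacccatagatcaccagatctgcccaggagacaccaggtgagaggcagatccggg
Saa2: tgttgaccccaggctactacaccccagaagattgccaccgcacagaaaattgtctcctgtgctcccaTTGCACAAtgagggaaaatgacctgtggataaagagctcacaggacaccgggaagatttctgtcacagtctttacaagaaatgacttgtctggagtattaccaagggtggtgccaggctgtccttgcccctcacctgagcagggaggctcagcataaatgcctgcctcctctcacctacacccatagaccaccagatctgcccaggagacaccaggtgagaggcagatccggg
Orm3: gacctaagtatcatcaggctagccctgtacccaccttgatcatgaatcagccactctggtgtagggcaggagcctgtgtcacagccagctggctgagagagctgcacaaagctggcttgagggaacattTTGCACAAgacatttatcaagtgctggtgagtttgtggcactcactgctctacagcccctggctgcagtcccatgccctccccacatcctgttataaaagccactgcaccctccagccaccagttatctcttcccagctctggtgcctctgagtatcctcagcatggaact
Lcn2: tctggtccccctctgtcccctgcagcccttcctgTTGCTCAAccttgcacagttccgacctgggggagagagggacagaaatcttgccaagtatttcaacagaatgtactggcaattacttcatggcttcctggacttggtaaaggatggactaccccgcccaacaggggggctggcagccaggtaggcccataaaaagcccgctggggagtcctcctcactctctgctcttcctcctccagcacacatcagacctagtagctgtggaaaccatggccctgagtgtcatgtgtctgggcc
Each of the 4 held the C/EBP pattern and none the STAT pattern. The match was TTGCACAA in Saa1 (-182 to -175), in Saa2 (-183 to -176) and in Orm3 (-121 to -114), and TTGCTCAA in Lcn2 (-216 to -209). The Saa1 and Saa2 windows were identical at 95.3% of 301 aligned positions, and those of Orm2 and Orm3 at 86.2% of 305.

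Saa1 varied together with Saa2, Lcn2 and Orm2 between samples of 1 group, whereas Hp, Socs3 and Hamp did not pass the same test. Over the 14 arrays, deviations were taken from a fit with terms for group and set. Saa1 correlated with Saa2 at r = 0.92 (rho = 0.91). The correlation with Lcn2 was r = 0.79 (rho = 0.81) and that with Orm2 r = 0.77 (rho = 0.74). As Saa1 and Saa2 are near copies, their array rows may share signal, and the part of this in their correlation was not tested. Permutation within group and set gave p = 0.000868 (rho: 0.000820) for Saa2, p = 0.0125 (rho: 0.00463) for Lcn2 and p = 0.00212 (rho: 0.00728) for Orm2. Adjusted over the 6 pairs computed, these permutation values became p = 0.00521, 0.0250 and 0.00637 for r, and 0.00492, 0.0139 and 0.0146 for rho. Within set 1 alone r was 0.96, 0.93 and 0.91 for Saa2, Lcn2 and Orm2 (exact permutation, adjusted p = 0.153 for each). Within set 2 alone r was 0.90, 0.74 and 0.70 (exact permutation, adjusted p = 0.0417, 0.271 and 0.0417). Without controls 1 and 4 the Saa2 relation passed (r = 0.89, permutation p adjusted to 0.0260), and those with Lcn2 (r = 0.68, 0.0977) and Orm2 (r = 0.72, 0.0573) did not. Without control 1 and knockout 7, the 2 arrays farthest from the median of Saa1, r was 0.87, 0.85 and 0.87, with permutation p adjusted to 0.0613 for each; rho was 0.87, 0.85 and 0.85, with permutation p adjusted to 0.0336 for each. Socs3 gave r = 0.02 (rho = 0.07; permutation p = 0.935 and 0.778, adjusted 0.935 and 0.778). Hp gave r = 0.32 (rho = 0.38; permutation p = 0.132 and 0.10, adjusted 0.182 and 0.151), with -0.16 in set 1 and 0.81 in set 2 (exact permutation, adjusted p = 0.785 and 0.0417). Hamp gave r = 0.52 (rho = 0.35, permutation p = 0.151 and 0.324, adjusted 0.182 and 0.388). Without control 1 and knockout 7, r was 0.77 for Hp, 0.46 for Socs3 and 0.18 for Hamp. The permutation p of r was then adjusted to 0.140, 0.505 and 0.712 in this order.

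**Figure D3:**
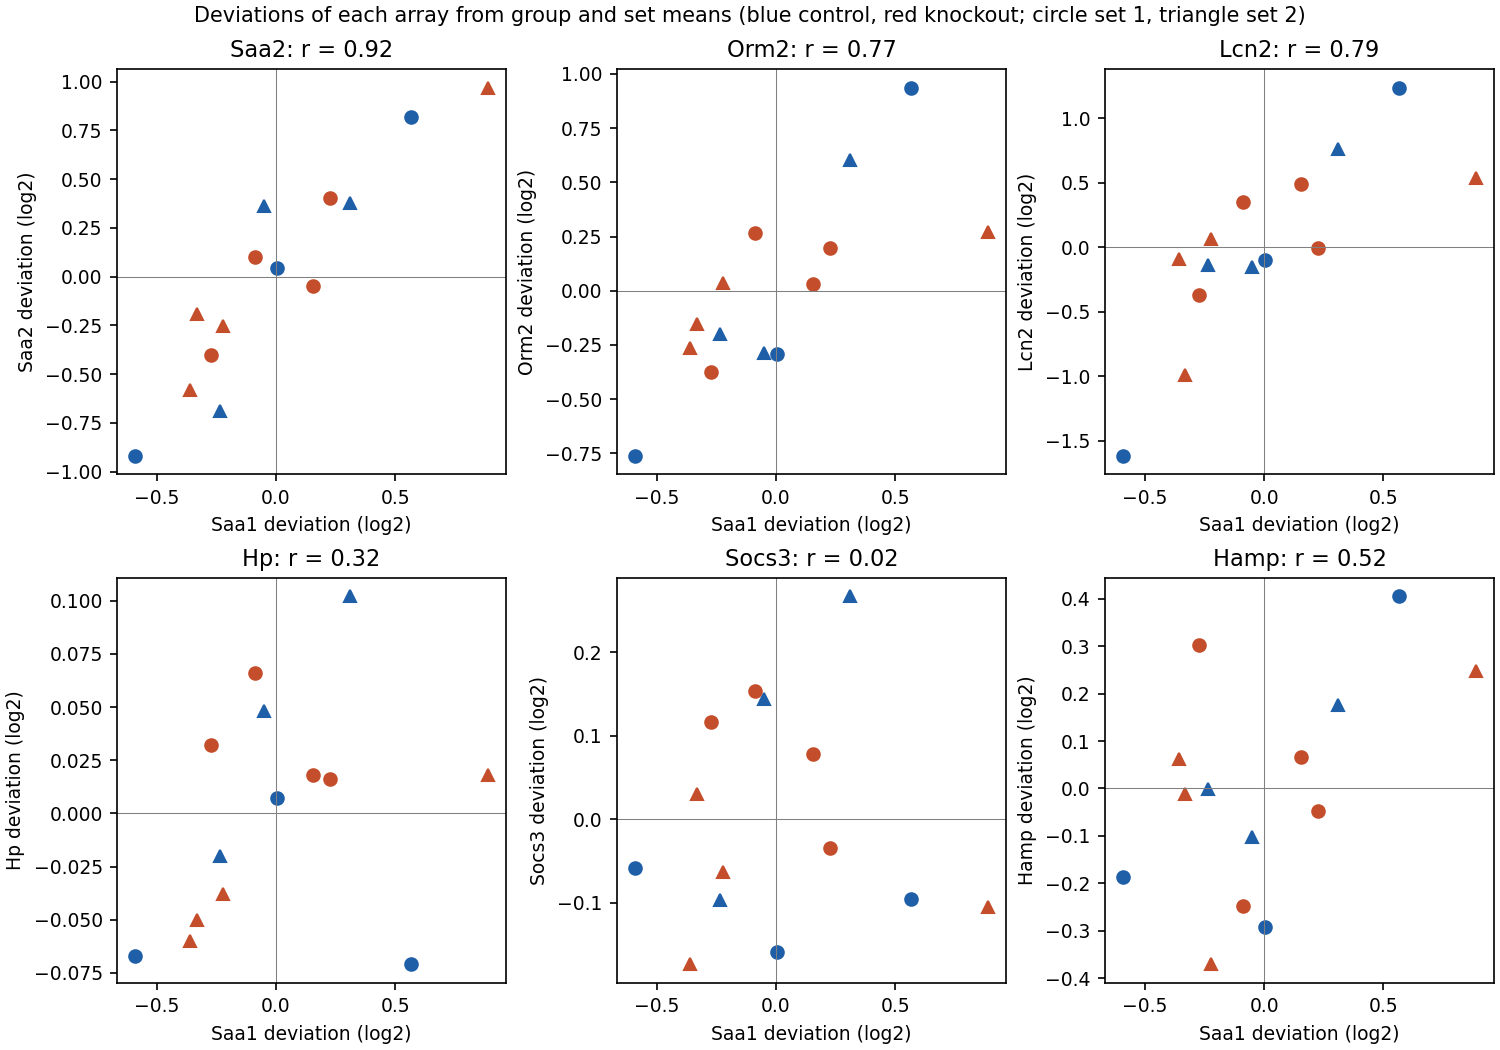
Deviation of each of the 14 arrays from a fit on group and set, for Saa1 (horizontal, log2) against 6 other genes (vertical, log2). Blue is control and red knockout, circles are set 1 and triangles set 2. Saa2, Lcn2 and Orm2 rise along Saa1 (r = 0.92, 0.79 and 0.77), while Socs3 shows no such slope (r = 0.02).

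Carriers of haem and metals had small differences, apart from Steap4. Hp, which encodes haptoglobin, the scavenger of free haemoglobin, was at -0.03 (95% interval -0.15 to 0.10) and Hpx, the haem carrier hemopexin, at -0.04 (95% interval -0.17 to 0.10). Cp, the copper-carrying ferroxidase ceruloplasmin, was at -0.02 (95% interval -0.16 to 0.11). All 3 intervals include 0. Hp lay between 13.10 and 13.34 and Hpx between 13.19 and 13.43 over the 14 arrays, close to the highest value in the table (13.77); whether their rows can still show a change at that level was not tested. Hamp, which encodes the iron hormone hepcidin, a target of both STAT3 and bone morphogenetic protein signalling, was at 0.09 (95% interval -0.18 to 0.35) with its groups overlapping in both sets.

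Steap4, an inflammation-induced metalloreductase, was at -0.34 ± 0.11 (adjusted p = 0.213). Its controls were at 9.26, 9.29 and 8.93 in set 1 and its knockouts at 8.54, 9.07, 8.88 and 8.88. In set 2 the controls were at 10.01, 9.78 and 9.74 and the knockouts at 9.14, 9.68, 9.70 and 9.37. Of the 8 knockout samples 7 were below all controls of their set, the exception being knockout 2, and the difference was -0.27 without controls 1 and 4.

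The fibrinogen chains, which assemble into the clotting protein fibrinogen, were slightly lower in the knockouts. Fga was at -0.15 ± 0.07, Fgb at -0.12 ± 0.06 and Fgg at -0.11 ± 0.06 (adjusted p = 0.441, 0.476 and 0.547). Without controls 1 and 4 they were at -0.09, -0.11 and -0.09. In 7 of 8 knockout samples Fgb was below the controls of its set, as was Fgg. Of the other protease inhibitors, Itih3 was at -0.12 ± 0.08 (adjusted p = 0.645) and Serpina3n, a serine protease inhibitor strongly induced by IL-6, at -0.07 ± 0.08 (adjusted p = 0.849), which became 0.05 without controls 1 and 4.

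The 2 genes of endotoxin sensing went in opposite directions without passing the test. Lbp, which encodes the secreted protein that carries lipopolysaccharide to CD14, was 10.78, 10.55 and 10.13 in the controls of set 1 and 10.16, 10.21, 10.10 and 9.89 in the knockouts. In set 2 it was 11.35, 11.17 and 11.07 in the controls and 10.64, 10.77, 10.74 and 10.88 in the knockouts. The groups were separate in set 2, and in set 1 only control 3 lay among the knockouts. The difference was -0.42 ± 0.10 (adjusted p = 0.0608) and -0.31 without controls 1 and 4. Without control 3 alone Lbp passed the threshold (adjusted p = 0.0165). Cd14, the receptor, made by macrophages and by hepatocytes in inflammation, was at 0.18 ± 0.09 (adjusted p = 0.497), with 6 of 8 knockout samples above the controls of their set.

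**Figure D4:**
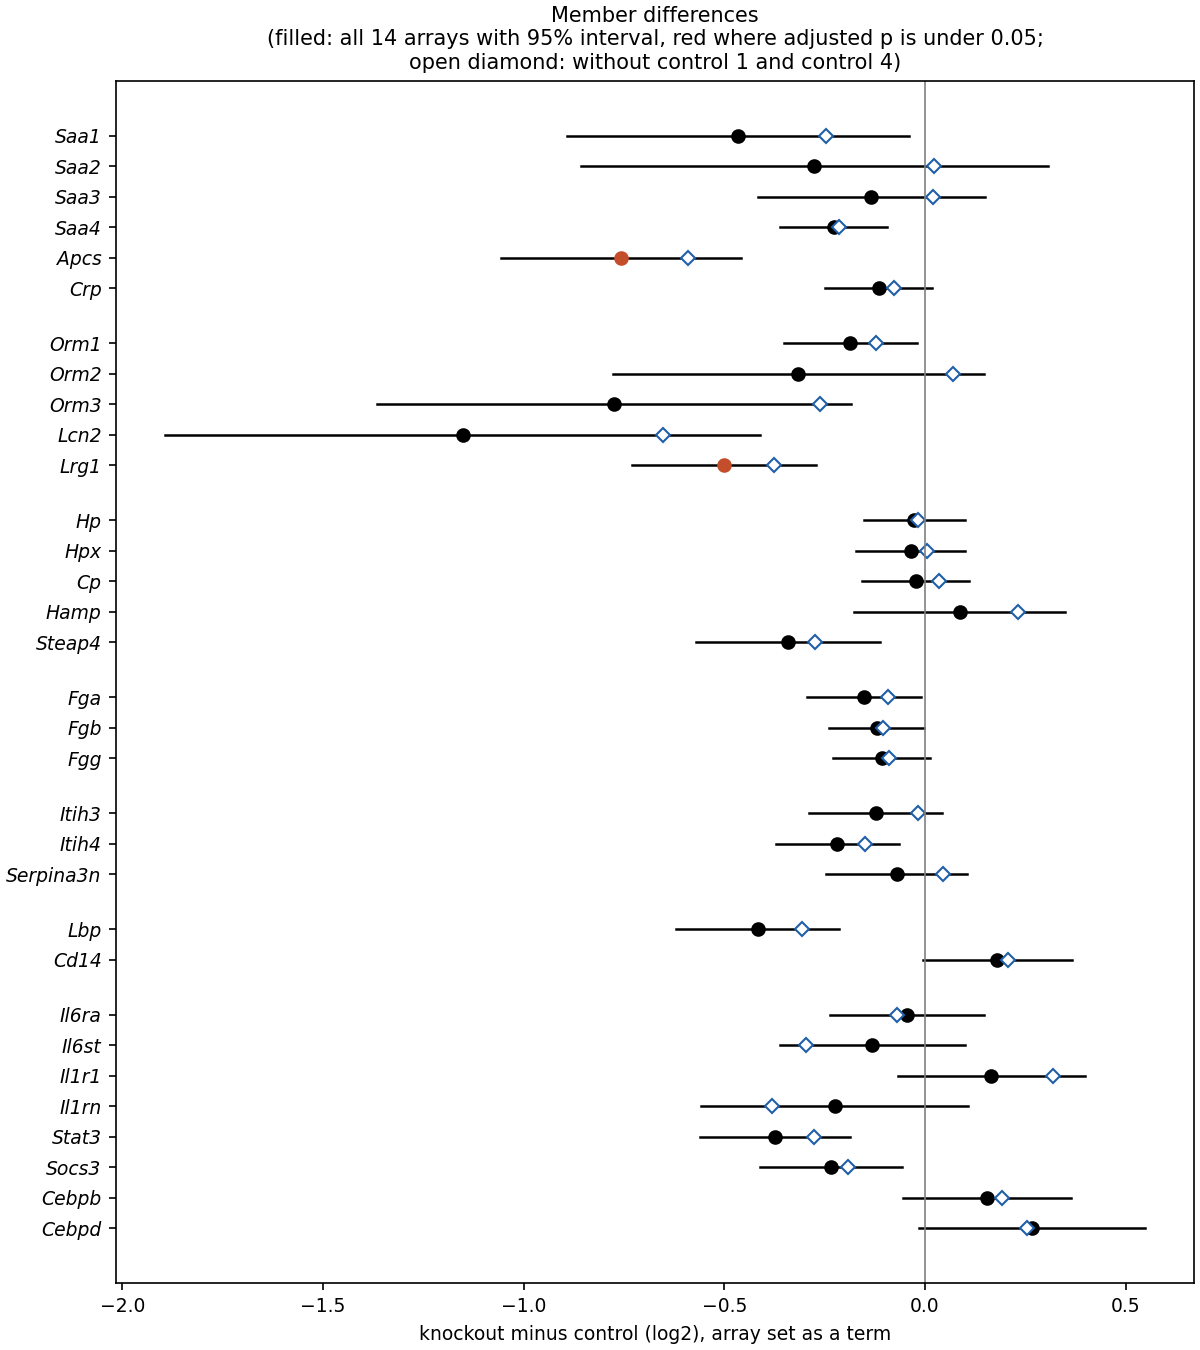
Knockout minus control (log2, horizontal) for the 32 genes, grouped by function; filled points and lines are the difference and 95% interval from all 14 arrays, red where the adjusted p is under 0.05, and open diamonds are the difference without control 1 and control 4. Of the 32 filled points 27 lie below 0 and 2 are red, Apcs and Lrg1; the diamonds of Saa2, Saa3, Orm2, Hpx, Cp and Serpina3n lie on the other side of 0 from their filled points.

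Among the signalling genes, Stat3 was lower in most knockout samples, and the IL-6 receptor chains had small differences. Stat3 was 9.67, 9.52 and 9.35 in the controls of set 1 and 9.06, 9.17, 9.23 and 9.39 in the knockouts. The controls of set 2 were at 10.00, 9.69 and 9.60 and the knockouts at 9.16, 9.25, 9.44 and 9.42. Apart from knockout 4, every knockout sample was below the controls of its set. The difference of -0.37 ± 0.09 had an adjusted p of 0.0676, or 0.0466 without control 3, and was -0.28 without controls 1 and 4. Il6ra was at -0.04 (95% interval -0.24 to 0.15) and Il6st at -0.13 (95% interval -0.36 to 0.10). Without controls 1 and 4, each the lowest in Il6st among the controls of its set, Il6st was at -0.30 (unadjusted p = 0.00585, adjusted p = 0.239 in limma).

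Socs3, the feedback inhibitor of gp130 signalling, was lower in the knockouts of set 2 and overlapped between the groups in set 1. It was 5.97, 5.90 and 6.00 in the controls of set 1 and 5.94, 5.98, 5.90 and 5.79 in the knockouts. These levels were close to the array medians of set 1 (5.73 to 5.75), and whether the row can show a change there was not tested. For set 2 the values were 6.97, 6.85 and 6.61 in the controls and 6.50, 6.40, 6.36 and 6.29 in the knockouts. The differences were -0.05 and -0.42, and the interaction of knockout and set had an unadjusted p of 0.0234 in limma (adjusted p = 0.998), the only one of the 32 genes under 0.05; 0 of all 19505 genes passed for this interaction after adjustment, and 4.83% had an unadjusted p under 0.05. Over both sets Socs3 was at -0.23 ± 0.08 (adjusted p = 0.290).

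The C/EBP factors and the IL-1 receptor lay on the other side. Cebpb was at 0.16 ± 0.10 (adjusted p = 0.647) and Cebpd at 0.27 ± 0.13 (adjusted p = 0.519), each with 6 of 8 knockout samples above the controls of their set. In set 1 Cebpd was 7.84, 8.11 and 8.11 in the controls and 8.42, 8.20, 8.30 and 8.44 in the knockouts. In set 2 it was 7.58, 7.46 and 7.31 in the controls and 8.00, 7.09, 7.45 and 8.10 in the knockouts, with knockout 6 the lowest and knockout 8 the highest. Il1r1 was at 0.17 ± 0.11 (adjusted p = 0.655) and its antagonist Il1rn at -0.23 ± 0.16 (adjusted p = 0.684). Without controls 1 and 4 these became 0.32 and -0.38. Together with Cd14 and Hamp, Cebpb, Cebpd and Il1r1 were the 5 members with a positive difference.

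Other genes of these pathways showed few called differences. Of 29 other positive acute phase proteins 24 were negative (median -0.06), or 16 without controls 1 and 4 (median -0.03), and 1 fell, Mt1, which encodes a metallothionein, by 0.50 ± 0.11 (adjusted p = 0.0426), with all 8 knockout samples below the controls of their set. Its difference was -0.47 without controls 1 and 4 (adjusted p = 0.169), and leaving out 1 array lost the call in 12 of 14 fits, all but those without control 3 or knockout 8 (adjusted p up to 0.112). Negative acute phase proteins, such as albumin and transthyretin, which fall in inflammation, had 6 of 12 members negative, a median of -0.01 and 0 called. Of 35 genes for ligands of the IL-6 family, their receptors and JAK-STAT control 19 were negative (median -0.01), and of 27 in IL-1, TNF and NF-kB signalling 17 (median -0.02). Of 18 transcription factors of acute phase genes 10 were negative (median -0.03) and of 19 regulators of hepcidin 7 (median 0.03). Limma called 0 genes in each of these 5 lists. At an unadjusted p under 0.05, where all genes gave 4.83% lower and 5.53% higher, 7 of the other positive acute phase proteins were lower and 1 was higher. At the same limit 1 negative acute phase protein, 4 genes of the IL-6 list, 4 of the IL-1 list and 6 transcription factors were lower, and 1 of the IL-1 list, 1 transcription factor and 2 hepcidin regulators were higher. Neutrophil markers, of interest because Lcn2 is also a neutrophil protein, had a mean over 11 genes between 4.76 and 4.97 in control and 4.56 and 4.85 in knockout samples of set 1. In set 2 these means were between 4.48 and 4.58 and between 4.37 and 4.67; control 1 had the highest mean of all arrays. Over both sets 7 of the 11 neutrophil markers were negative and 4 positive (median -0.11), and without controls 1 and 4 the median was -0.01. Many of these markers were dim, such as Ltf (mean 3.34) and Mmp8 (mean 3.40), where array medians lay between 5.73 and 5.87. The brightest was Csf3r, with a mean of 6.16. Their means may thus show little of neutrophil content. The part of neutrophils in the Lcn2 values was not tested. No marker of Kupffer cells, neutrophils, monocytes, lymphocytes, endothelium, stellate cells or cholangiocytes was called between the groups.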

How the data were processed

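The deposited table holds log2 expression values for 14 Affymetrix arrays, and RMA and Partek are the tools listed in the submitters' processing notes. Of 22206 rows, 19572 had 1 gene symbol, 0 had several and 2634 were not named; of 55 genes with more than 1 row the row with the highest mean was kept, which left 19505 genes. Array medians lay between 5.73 and 5.87, and the number of arrays limits the precision. The 2 array sets came from average-linkage clustering of the correlations between arrays, without group labels.

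Knockout minus control was fitted with limma 3.58.1 (lmFit and eBayes, R 4.3.3) with a term for the set (11 residual degrees of freedom) and Benjamini-Hochberg adjustment over all genes; the threshold was an adjusted p of 0.05. On simulated data this fit called 72% of genes changed by 0.5 and 97% of those changed by 1 (log2). Without the set term the shares were 28% and 76%. The simulation kept the set difference of these arrays, which favours the set term, and used independent noise and randomly chosen genes. These shares need not hold for members with a large spread, such as Lcn2. Correlations used deviations from a fit with additive terms for group and set. Their p-values came from exact two-sided permutation within group and set (scipy 1.17.1, 20736 permutations). Promoter windows are those of RefSeq for GRCm38.p6; Cd14, Cebpd, Hp, Lbp and Orm1 have none here. Named are all members, up to 4 called genes of each other list with the largest change, the 2 targeted genes, and defining markers of a cell type whose level moved with a result.

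The members and lists, the set term and the fit without controls 1 and 4 were chosen with earlier results of these data known. Livers without metformin were not analysed here. Same-numbered control and knockout samples showed little shared deviation, and no pairing was used, though this cannot decide whether samples were paired. Alternatives changed the set term, the filter on dim genes, the normalization, the moderation, the rule for several rows and the arrays included.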

Additional observations from a re-analysis of the deposited data

Results flagged for a closer look

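The 6 controls and the 8 knockouts were each searched, for all 32 genes, for an array that stood apart from the rest of its group. All deviations here are log2 levels minus the values fitted with additive terms for group and set. By Dixon's test at the 95% level 4 of these 64 groups held such an array, a rate that chance alone can give (about 1 in 20 groups). Saa1 in knockout 7 was 0.89 above its fitted value (level 9.36), while the nearest other knockout was at 0.225. Fga in knockout 4 was at -0.126 (level 12.22), with the nearest of the others at -0.02. Fgg in the same array deviated the other way, by 0.103 (level 13.28; nearest 0.011). Itih3 in knockout 5 was at -0.15 (level 11.99; nearest -0.011). Knockout 7 had the highest level of the 4 knockouts of its set for 19 of the 32 genes.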

How the results depend on the processing

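The median difference over the members stayed between -0.20 and -0.09, and no alternative reversed a called value. Calls were less stable. The 2 members called lower became 0 without the set term, with knockouts 5 and 7 and knockouts 6 and 8 averaged, without knockouts 7 and 8, without controls 1 and 4, and in set 1 or set 2 alone. They became 1 with median centring (Apcs), 4 with quantile normalization, without genes under 5 on the log2 scale or at an adjusted p of 0.1, and 7 with a trended and robust prior. Leaving out 1 array gave between 0 and 5. The 14 members at an unadjusted p under 0.05 became 3 without the set term, 9 without controls 1 and 4, 5 in set 1 and 9 in set 2. For set 1 or set 2 alone the share of all genes at this limit was not computed, so these counts have no background. In the same fits as above, the 53 genes called lower and 84 called higher of all genes became 0 and 0 (no set term), 22 and 45 (averaged), 4 and 8 (without knockouts 7 and 8), 12 and 14 (without controls 1 and 4), 1 and 1 (set 1), 2 and 0 (set 2), 84 and 139 (dim genes left out), 124 and 201 (trended and robust), and 96 and 146 (adjusted p of 0.1), and between 14 and 48 and between 30 and 84 without 1 array. With median centring 45 of all genes were called lower and 82 higher, and with quantile normalization 63 and 77. With the replicate number as a block beside the set, 0 members, 1 lower and 1 higher gene were called. The deviations of same-numbered samples correlated at -0.07 to 0.15. This cannot decide whether samples were paired, as deviations within a set are not independent and number 4 joins samples of different sets. By Pearson's r, the 3 pairs correlated with Saa1 became 0 in set 1, 3 in set 2 (with Hp in place of Lcn2), 0 without the 2 farthest arrays (where all 3 passed by rho) and 1 without controls 1 and 4. Fits on fewer arrays have less power; the other causes were not tested.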
